A study of Mus musculus with 4 samples.

Results

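The genes described here are 57 mouse developmental regulators of 17 families (Dlx, Msx, En, Emx, Vax, Tlx, Barhl, Gbx, Nkx, Lhx, Lmx, Isl, Otx, Pitx, Pax, Irx and that of Six3), out of 21938 protein-coding genes of the GENCODE M21 annotation on mm10. They were chosen by name, as homeobox and Pax factors outside the Hox clusters that pattern the nervous system and other organs, and not by their methylation. Earlier results of these data were known when they were chosen. For each gene the CpG sites within 1 kb of its start site (its promoter) and the sites of the rest of the gene with 2 kb flanks were taken from tables of percent methylation. No site belonged to more than 1 of the 57 genes.

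The tables come from reduced representation bisulfite sequencing (RRBS), in which DNA is cut with MspI at CCGG, treated with bisulfite and sequenced, and the percent of reads that still show a cytosine gives the methylation of a CpG. There were 4 libraries, 1 per condition. R1 is a wild-type mouse embryonic stem cell (ESC) line, grown with leukemia inhibitory factor. Dnmt1 Tet/Tet (Tet/Tet) is a line made from R1 with tet-off constructs placed at Dnmt1, the maintenance DNA methyltransferase, which it was made to overproduce, and its ESCs were kept in 1 ug/ml puromycin and 150 ug/ml neomycin. Neurons were derived from each line by 2 days as embryoid bodies and 10 to 15 days in neural medium. Each condition is 1 culture of 1 line, so there is no spread between replicates, and no difference below was tested. The deposited tables give no read totals, so the depth behind each value is unknown. By their labels, ESC and neuron libraries were sequenced in separate projects, so differences between ESCs and neurons cannot be told apart from differences between projects.

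The tables list 2311939 (R1) and 2936767 (Tet/Tet) CpG sites for ESCs and 5298360 (R1) and 3979487 (Tet/Tet) for neurons, and 1545651 sites are listed in all 4. Levels below are unweighted means over sites listed in all 4, for regions with at least 10 such sites. The 57 genes hold 10669 of them, with 3857 in promoters and 6812 in the rest of the gene. Chromosomes 8 and 9 and parts of 7 and 10 of Tet/Tet neurons were not analysed here, and none of the 57 genes lies there. DNA methylation does not show which genes a cell uses, so the labels could be checked only in part. At the promoter of the pluripotency gene Pou5f1 methylation was 1.90% (R1) and 8.91% (Tet/Tet) in ESCs and 36.1% (R1) and 5.44% (Tet/Tet) in neurons. The only other pluripotency promoter with enough sites was at 39.4% (R1) and 40.9% (Tet/Tet) in ESCs and 76.8% (R1) and 9.84% (Tet/Tet) in neurons. The neuron marker promoters with enough sites (Map2, Mapt, Syn1 and Snap25) ranged from 1.22% to 7.52% (R1) and 1.22% to 3.97% (Tet/Tet) in ESCs. In neurons they ranged from 1.04% to 18.3% (R1) and 1.52% to 6.27% (Tet/Tet).

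A homeobox is the stretch of coding sequence for the homeodomain, a DNA-binding fold of 60 residues. Homeobox and Pax factors lay out territories and cell types of the embryo. Genes of this kind typically sit in long CpG-rich stretches that are little methylated in ESCs, where Polycomb proteins keep many of them silent until they are needed. Pax factors bind DNA through a paired domain, and Pax1 and Pax9 lack a homeodomain while Pax2, Pax5 and Pax8 keep only part of one. The signature of the homeodomain's last helix (tryptophan, then phenylalanine or tyrosine, then an asparagine and an arginine at fixed spacing) was found in the coding sequence of 52 of the 57 genes, and the 5 without it are these Pax genes.

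The stretches with the largest difference between the R1 libraries show where in these genes methylation differed. For each gene, all stretches of at most 200 bases with 8 or more CpGs listed in all 4 libraries were compared, and the 4 genes with the largest difference are printed. Letters are from the mm10 sequence, in the direction of the gene, and capitals mark the CpGs with a value in all 4 libraries. A stretch is labelled as a coding exon where any part of it overlaps one.
Irx4, chr13:73267465-73267548, + strand, coding exon: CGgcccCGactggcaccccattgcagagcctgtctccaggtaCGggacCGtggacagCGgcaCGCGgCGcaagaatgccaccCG
Pitx3, chr19:46147389-46147491, - strand, intron: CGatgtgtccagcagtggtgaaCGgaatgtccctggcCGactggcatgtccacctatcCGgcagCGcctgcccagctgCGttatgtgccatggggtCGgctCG
Gbx1, chr5:24504629-24504793, - strand, coding exon: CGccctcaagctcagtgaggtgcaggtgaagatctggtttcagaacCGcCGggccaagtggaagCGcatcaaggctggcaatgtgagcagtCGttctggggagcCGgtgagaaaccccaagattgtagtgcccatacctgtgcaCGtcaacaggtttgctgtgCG
Pax2, chr19:44837973-44838133, + strand, just past the annotated end of the gene: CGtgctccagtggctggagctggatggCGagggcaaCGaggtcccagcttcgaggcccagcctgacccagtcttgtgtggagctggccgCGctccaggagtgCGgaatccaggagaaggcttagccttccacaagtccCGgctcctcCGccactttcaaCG

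In the Irx4 stretch the 9 CpGs averaged 15.8% (R1) and 29.8% (Tet/Tet) in ESCs and 94.2% (R1) and 12.48% (Tet/Tet) in neurons, and every CpG was at 91.9% or more in R1 neurons. Irx4 is a factor of the heart ventricles, and 20 bases of this stretch fall in its homeodomain codons. For every gene these were taken as the 60 codons placed by the signature of the last helix. In the Gbx1 stretch the 8 CpGs averaged 14.3%, 17.5%, 88.5% and 14.2% in the same order of libraries, and 73 of its 165 bases are homeodomain codons. Gbx1 takes part in patterning the neural tube. The Pax2 stretch, downstream of a gene needed for kidney and midbrain, averaged 12.45% (R1) and 18.8% (Tet/Tet) in ESCs and 85.66% (R1) and 6.19% (Tet/Tet) in neurons. In these 3 stretches R1 neurons were high and the other libraries low. None of them lies in a CpG island, called here where over 200 bp reach 50% GC with an observed to expected CpG ratio above 0.6. The Pitx3 stretch differs in that it lies in an island, 886 bp downstream of the start site. It averaged 0% (R1) and 28.8% (Tet/Tet) in ESCs and 74.4% (R1) and 5.95% (Tet/Tet) in neurons, and its 8 CpGs ranged from 0% to 100% in Tet/Tet ESCs, so single sites differed widely there. Pitx3 is a factor of midbrain dopamine neurons and of the lens.

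At the opposite end are start sites with low values in all 4 libraries. The 200 bases before the start of Irx1 and Gbx1, which have some of the lowest promoter levels in R1 neurons, are shown as examples.
Irx1, chr13:71963724-71963923, - strand, before the start site: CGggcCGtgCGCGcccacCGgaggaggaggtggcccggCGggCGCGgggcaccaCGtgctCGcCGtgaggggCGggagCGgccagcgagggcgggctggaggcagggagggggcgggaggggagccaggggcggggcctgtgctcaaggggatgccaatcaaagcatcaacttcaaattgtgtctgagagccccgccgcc
Gbx1, chr5:24527203-24527402, - strand, before the start site: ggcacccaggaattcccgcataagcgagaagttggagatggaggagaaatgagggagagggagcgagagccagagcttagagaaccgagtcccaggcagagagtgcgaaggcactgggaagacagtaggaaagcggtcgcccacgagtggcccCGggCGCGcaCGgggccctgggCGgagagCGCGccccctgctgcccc

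The 13 marked CpGs before Irx1 averaged 0.41% (R1) and 0.80% (Tet/Tet) in ESCs and 0.64% (R1) and 1.01% (Tet/Tet) in neurons. The 7 marked CpGs before Gbx1 averaged 2.75%, 1.02%, 2.01% and 2.38% in the same order. Gbx1 thus had a coding exon with near full methylation and a start site with almost none in the same library of R1 neurons.

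Promoters of these genes were little methylated in every library. Of the 57 genes, 54 had at least 10 promoter sites, and Lhx3, Lhx4 and Pax4 had 0. The median promoter level was 3.05% (R1) and 2.88% (Tet/Tet) in ESCs and 4.22% (R1) and 2.41% (Tet/Tet) in neurons, against 2.36%, 2.58%, 4.52% and 2.64% over all 10326 protein-coding genes with enough sites. A level under 10% was found at 50 of the 54 promoters (92.6%) in the ESCs of either line. In neurons it was found at 42 (77.8%) in the R1 line and at 53 (98.1%) in the Tet/Tet line. Over all protein-coding genes the share was 93.0% (R1) and 93.4% (Tet/Tet) in ESCs. It was 73.4% (R1) and 94.6% (Tet/Tet) in neurons. Levels under 10% were thus about as common over all genes as at the 54 promoters. By sequence these promoters were CpG-rich, with a median of 109 CpGs per promoter against 61 over all protein-coding genes and a GC content of 57.7% against 51.2%. An island lay over the start site in 38 of the 57 genes (66.7%) and in 44.0% of all genes.

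Between the ESC lines no promoter of the 54 differed by 10 percentage points, the difference counted throughout, in either direction. Over all genes 1.07% of promoters were counted as higher in Tet/Tet ESCs and 0.416% as lower. The largest differences among the 54 were at Otx2, a head and midbrain factor, with 11.1% in the R1 and 3.20% in the Tet/Tet line, and at Pitx3, with 1.6% and 7.5%. The values of the 26 Otx2 sites were scattered, with an SD over sites of 26.3 points in R1 ESCs.

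From R1 ESCs to R1 neurons 6 of the 54 promoters were counted as higher and 0 as lower, against 20.4% counted as higher and 0.0968% as lower over all genes, and 11.2% as higher over genes with an island at the start site. The same 6 promoters were those counted as lower in Tet/Tet neurons than in R1 neurons, where 20.7% of all genes were counted as lower and 0.0291% as higher. They belong to Pax8, Pax5, Nkx2-5, Dlx1, Barhl1 and Pitx3. Pax8, a thyroid and kidney factor (chromosome 2, 24420560 to 24475599, - strand), was at 7.16% (R1) and 10.1% (Tet/Tet) in ESCs and 74.5% (R1) and 14.0% (Tet/Tet) in neurons over 15 sites, none of them in an island. It was the only one of the 54 promoters at or above 50% in any library, and 14 of its 15 sites were higher in R1 neurons than in R1 ESCs. Pax5, a factor of B cells and of the midbrain (chromosome 4, 44524757 to 44710487, - strand), was at 3.33% (R1) and 5.97% (Tet/Tet) in ESCs and 47.8% (R1) and 2.28% (Tet/Tet) in neurons over 18 sites. Most of these sites (17) lie in an island of 500 bp centred at -402 bp from the start site, which averaged 47.7% in R1 neurons and between 2.41% and 4.85% elsewhere.

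Nkx2-5, a heart factor (chromosome 17, 26838664 to 26845009, - strand), had the highest ESC levels of the 54 promoters, 21.6% in R1 and 21.9% in Tet/Tet, and was at 43.0% (R1) and 9.06% (Tet/Tet) in neurons. All 28 of its sites were higher in R1 neurons than in R1 ESCs. It was also the only promoter counted between ESCs and neurons of the Tet/Tet line, where it was lower by 12.8 points and 3.13% of all genes were counted as lower and 0.397% as higher. Dlx1, a factor of forebrain interneurons (chromosome 2, 71528113 to 71533981, + strand), averaged 11.7% (R1) and 12.46% (Tet/Tet) in ESCs and 27.5% (R1) and 3.79% (Tet/Tet) in neurons. Its sites did not move together, since 15 of 30 were higher and 14 lower in R1 neurons than in R1 ESCs, and the median over its sites was lower by 2.69 points. Barhl1, a factor of the hindbrain and inner ear, was at 7.09% (R1) and 9.23% (Tet/Tet) in ESCs and 18.9% (R1) and 3.76% (Tet/Tet) in neurons. The promoter of Pitx3 was at 16.7% (R1) and 3.53% (Tet/Tet) in neurons. It holds the 8 CpGs of the stretch printed above. Its island over the start site, with 33 sites, was at 1.42% (R1) and 2.60% (Tet/Tet) in ESCs and 2.72% (R1) and 2.35% (Tet/Tet) in neurons. The lowest promoters in R1 neurons were those of Nkx6-1, a factor of ventral neural progenitors and pancreatic beta cells, at 1.75%, and of Gbx1 and Irx1, both at 1.81%.

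**Figure D1:**
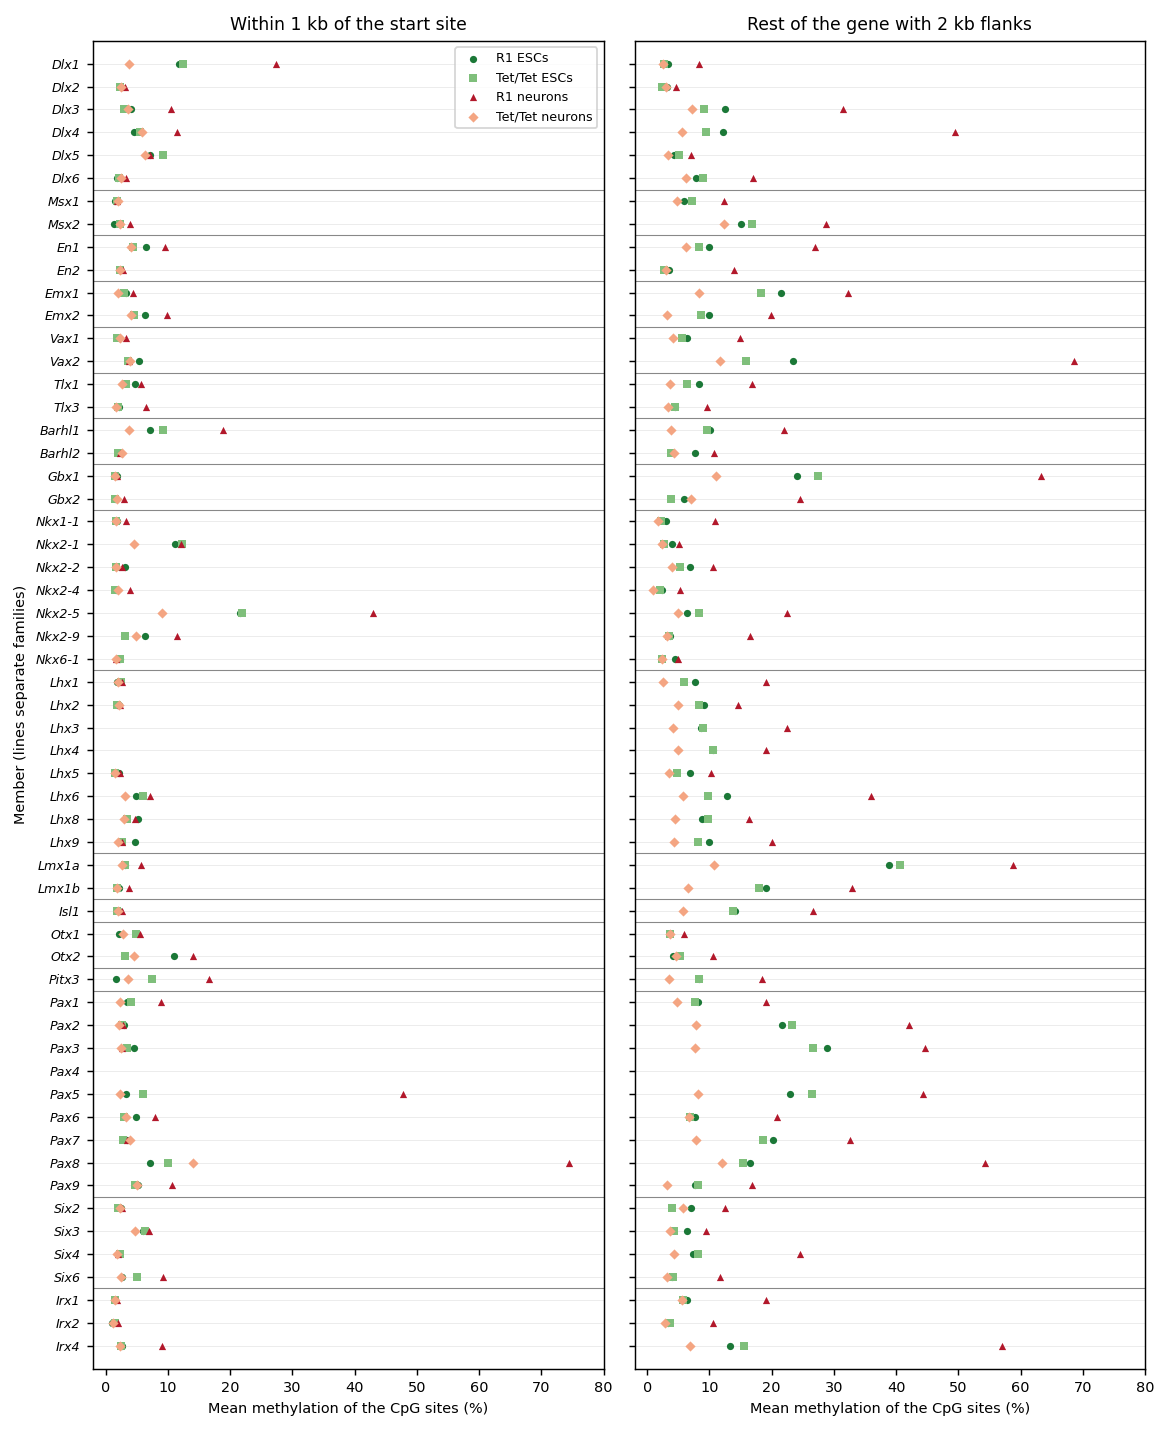
Mean methylation (%, x axis) of the CpG sites listed in all 4 libraries for each of the 57 genes (y axis, grouped by family), within 1 kb of the start site (left) and in the rest of the gene (right); genes with fewer than 10 sites have no points. Most promoters lie under 10% in each library, while in the rest of the gene R1 neurons (red triangles) reach 68.6% and Tet/Tet neurons (orange diamonds) stay at or below 12.4%.

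The rest of these genes was less methylated than that of other genes in each library. Among the 56 genes with enough sites (Pax4 had 4) the median was 7.78% (R1) and 8.12% (Tet/Tet) in ESCs and 19.1% (R1) and 4.59% (Tet/Tet) in neurons. Over all 10800 protein-coding genes with enough sites it was 35.4%, 37.3%, 85.8% and 14.5% in the same order. In R1 neurons 5 of the 56 genes were at or above 50%, whereas 8417 of the 10800 genes were. Restricting the comparison to genes with an island over the start site did not bring the medians together, since these 5857 genes had a median of 87.2% in R1 neurons. With 1 library per condition these are descriptions of the libraries.

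Between the ESC lines 0 of the 56 genes were counted in either direction, with 7.63% of all genes counted as higher in Tet/Tet ESCs and 2.52% as lower. Differences ranged from -7.62 points at Vax2, where R1 ESCs were at 23.5% and Tet/Tet ESCs at 15.8%, to 3.48 points at Pax5. From R1 ESCs to R1 neurons 30 of 56 genes were counted as higher and 0 as lower, with 93.1% of all genes counted as higher and 0.0185% as lower. The median difference was 10.3 points among the 56 and 38.9 points over all genes. Comparing Tet/Tet neurons with R1 neurons, 37 of 56 were counted as lower and 0 as higher, with 95.2% of all genes counted as lower and 0% as higher, and the median difference was -14.1 points against -68.1 over all genes. From Tet/Tet ESCs to Tet/Tet neurons 8 of 56 were counted as lower and 0 as higher, with 71.9% of all genes counted as lower and 0.352% as higher, and the median difference was -2.79 against -21.4 points. Comparisons that share a library are not independent of each other.

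The genes with the largest differences in R1 cells come from several families. Vax2, a factor of the ventral eye (chromosome 6, 83711264 to 83738313, + strand), was at 23.5% (R1) and 15.8% (Tet/Tet) in ESCs and 68.6% (R1) and 11.6% (Tet/Tet) in neurons over 61 sites, and none of these sites was in an island. Its relative Vax1, of the forebrain and optic stalk, reached 15.0% in R1 neurons. Irx4 was at 13.3% (R1) and 15.5% (Tet/Tet) in ESCs and 56.9% (R1) and 6.89% (Tet/Tet) in neurons, with 102 of 110 sites higher in R1 neurons than in R1 ESCs. The other Iroquois genes were lower in R1 neurons, with Irx1 at 19.2% and Irx2 at 10.6%. Gbx1 was at 24.1% (R1) and 27.4% (Tet/Tet) in ESCs and 63.3% (R1) and 10.99% (Tet/Tet) in neurons. Its relative Gbx2, which positions the boundary of midbrain and hindbrain, was at 5.85% (R1) and 3.87% (Tet/Tet) in ESCs and 24.6% (R1) and 7.04% (Tet/Tet) in neurons, and was the member with the largest rise, 3.17 points, from Tet/Tet ESCs to Tet/Tet neurons.

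The Dlx genes, which stand in the genome as neighbouring pairs and act in forebrain interneurons and the jaw, ranged from 4.56% to 49.4% in R1 neurons. Dlx4 was at 12.2% (R1) and 9.40% (Tet/Tet) in ESCs and 49.4% (R1) and 5.64% (Tet/Tet) in neurons. Its neighbour Dlx3 reached 31.5% in R1 neurons. Dlx2 had the lowest level of the 56 genes in R1 neurons, 4.56%, and was at 3.26% (R1) and 2.38% (Tet/Tet) in ESCs and 2.95% in Tet/Tet neurons. Its neighbour Dlx1 was at 8.38% in R1 neurons. Dlx5 was at 7.01% and Dlx6 at 16.9% in R1 neurons. The pair Dlx3 and Dlx4 was thus higher than the other Dlx genes in that library, and in the other 3 libraries no Dlx gene exceeded 12.42%.

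Among the Nkx genes, the 3 with the lowest levels in R1 neurons were Nkx6-1 with 4.88%, Nkx2-1, a factor of ventral forebrain, thyroid and lung, with 5.03%, and Nkx2-4 with 5.30%. In Nkx6-1 the rest of the gene was at 4.42% (R1) and 2.45% (Tet/Tet) in ESCs and 2.42% in Tet/Tet neurons, and its difference between R1 neurons and R1 ESCs, 0.45 points, was the smallest of the 56. Nkx2-5 was the highest of the family at 22.5% in R1 neurons. Nkx2-2, Nkx1-1 and Nkx2-9 were at 10.6%, 10.9% and 16.5% there. Otx1 and Otx2, which act in the forebrain and midbrain, were at 5.97% and 10.6% in R1 neurons, and neither was counted in any comparison of the rest of the gene.

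The LIM-homeodomain genes (Lhx, Lmx and Isl) specify neuron types such as motor neurons, cortical interneurons and dopamine neurons. Of the 8 Lhx genes 4 were counted as higher in R1 neurons than in R1 ESCs, against 93.1% of all genes. Lhx6, a factor of cortical interneurons, was the highest of them in R1 neurons at 35.96%, with 12.8% (R1) and 9.80% (Tet/Tet) in ESCs and 5.75% in Tet/Tet neurons. Lhx5 was the lowest at 10.3% in R1 neurons. Isl1 was at 26.6% in R1 neurons. Lmx1a, a determinant of midbrain dopamine neurons (chromosome 1, 167689237 to 167848741, + strand), had the highest ESC levels of the 56 genes. It was at 38.8% (R1) and 40.6% (Tet/Tet) in ESCs and 58.8% (R1) and 10.8% (Tet/Tet) in neurons over 147 sites, and its difference of -29.9 points from Tet/Tet ESCs to Tet/Tet neurons was the largest. Lmx1b was at 19.05%, 17.98%, 32.9% and 6.59% in the same order of libraries.

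Of the 8 Pax genes with enough sites 7 were counted as higher in R1 neurons, against 93.1% of all genes, and Pax9 missed the difference at 9.11 points. Pax8 was at 16.4% (R1) and 15.5% (Tet/Tet) in ESCs and 54.3% (R1) and 11.99% (Tet/Tet) in neurons, so it was high in R1 neurons in both its promoter and the rest of the gene. Pax3, a factor of the dorsal neural tube, neural crest and muscle, was at 28.8% (R1) and 26.6% (Tet/Tet) in ESCs and 44.6% (R1) and 7.70% (Tet/Tet) in neurons. Pax5 was at 23.0% (R1) and 26.5% (Tet/Tet) in ESCs and 44.3% (R1) and 8.23% (Tet/Tet) in neurons over 473 sites. Pax6, which is needed in the eye, the cortex and the pancreas, was at 7.67% (R1) and 6.92% (Tet/Tet) in ESCs and 20.8% (R1) and 6.77% (Tet/Tet) in neurons. Pax9, a factor of teeth and vertebrae, was the lowest of the family in R1 neurons at 16.8%. Of the 8 genes of any family counted as lower from Tet/Tet ESCs to Tet/Tet neurons, 4 were Pax genes, namely Pax3 (-18.95 points), Pax5 (-18.2), Pax2 (-15.4) and Pax7 (-10.8). The others were Lmx1a, Gbx1 (-16.5), Lmx1b (-11.4) and Emx1 (-10.04). The genes counted were those with the highest levels of the 56 in Tet/Tet ESCs.

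The remaining families lay between these extremes in R1 neurons. Six4 was at 24.6% and Six3, which acts in forebrain and eye, at 9.45%. Emx1 and Emx2, of the developing cortex, were at 32.2% and 19.9%. En1 was at 27.0% and En2 at 13.9%, both being factors of midbrain and cerebellum. Msx2 and Msx1, of neural crest and limb, were at 28.7% and 12.3%. Barhl1 was at 22.0% and Barhl2 at 10.8%, Tlx1 at 16.9% and Tlx3 at 9.55%, and Pitx3 at 18.5%. In Tet/Tet neurons the levels of the 56 genes lay between 0.96% at Nkx2-4 and 12.4% at Msx2, so the spread among the genes seen in R1 neurons was much smaller there.

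**Figure D2:**
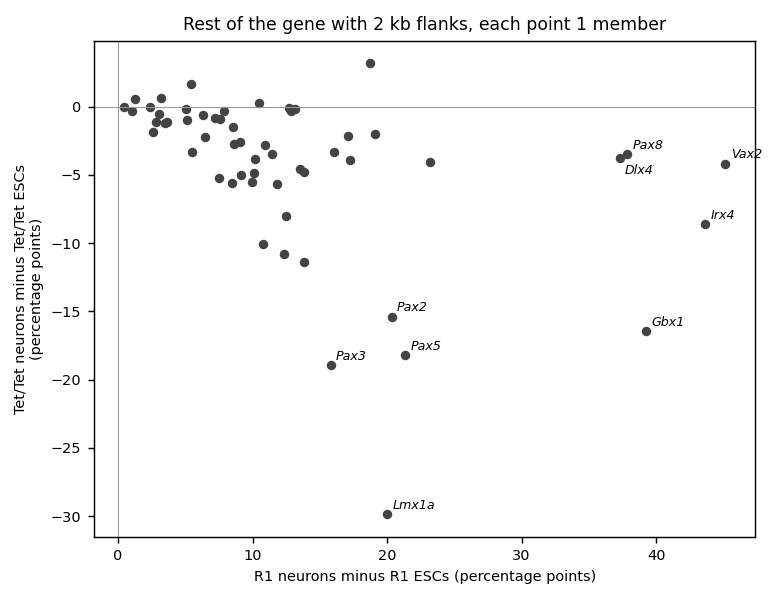
Difference in percentage points between neurons and ESCs of the R1 line (x axis) and of the Tet/Tet line (y axis) for the rest of the gene, each point being 1 of 56 genes. All points lie to the right of 0 and most lie below 0, with Vax2 farthest right at 45.2 points and Lmx1a lowest at -29.9.

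Mean levels in the rest of the gene were lower inside CpG islands than outside them in each library. Of the sites in the rest of the 57 genes 52.6% were in islands, against 26.5% over all protein-coding genes. Inside islands the 3582 sites of these genes averaged 3.59% (R1) and 2.65% (Tet/Tet) in ESCs and 6.79% (R1) and 2.68% (Tet/Tet) in neurons. Outside islands their 3230 sites averaged 21.1%, 21.2%, 43.2% and 8.51% in the same order. The sites of all genes were higher in R1 neurons on both sides of this division, with 15.5% inside and 83.2% outside islands. Their lower level was thus present among island sites and among other sites alike. Counted with island sites only, 5 of 50 genes were higher in R1 neurons than in R1 ESCs in the rest of the gene, against 34% of all genes. With islands left out 40 of 52 were, against 98.7% of all genes.

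**Figure D3:**
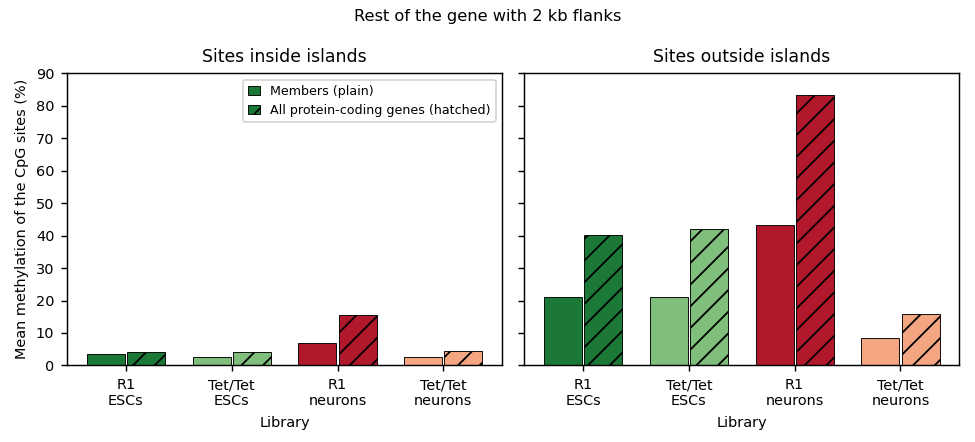
Mean methylation (%, y axis, bars from 0) in each library of the sites in the rest of the gene, inside CpG islands (left) and outside (right), for the 57 genes (plain bars) and all protein-coding genes (hatched bars). In R1 neurons the bars outside islands stand at 43.2% for the 57 genes and 83.2% for all genes.

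The 57 genes overlapped 151 islands, of which 130 had at least 10 sites listed in all 4 libraries. The median island was at 3.02% (R1) and 2.14% (Tet/Tet) in ESCs and 3.97% (R1) and 2.42% (Tet/Tet) in neurons. From R1 ESCs to R1 neurons 12 of the 130 were higher by at least 10 points, against 17.1% of the islands of all protein-coding genes. Of the 37 islands that lay over a start site 1 was among them, against 6.58% of the islands over a start site of any protein-coding gene. That 1 was the island at Otx2 (chromosome 14, 48673672 to 48674264), with 4.52% (R1) and 1.73% (Tet/Tet) in ESCs and 15.2% (R1) and 3.52% (Tet/Tet) in neurons. The largest difference was in Lhx6, in an island of 309 bp (chromosome 2, 36094201 to 36094509) centred 11053 bp downstream of the start site. It was at 7.13% (R1) and 4.85% (Tet/Tet) in ESCs and 57.04% (R1) and 4.74% (Tet/Tet) in neurons, whereas the island nearest the start of the same gene was at 7.15% in R1 neurons. Gbx2 had an island of the same kind (chromosome 1, 89928657 to 89928995), with 6.06% (R1) and 3.02% (Tet/Tet) in ESCs and 42.4% (R1) and 6.71% (Tet/Tet) in neurons, while the island at its start stayed between 1.32% and 1.49%. In Dlx4 an island of 327 bp (chromosome 11, 95143062 to 95143388) was at 7.38% (R1) and 1.45% (Tet/Tet) in ESCs and 37.7% (R1) and 4.89% (Tet/Tet) in neurons.

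The codons of the homeodomain itself had 5 or more sites in all 4 libraries in 19 genes. In 15 of these genes all of the sites were in islands, and the level in R1 neurons had a median of 4.0% and ranged from 1.47% at Lhx6 to 47.7% at Gbx2. In the other 4 genes no site was in an island, and R1 neurons were at 27.7% at Otx2, 28.1% at Six6, 37.4% at Vax1 and 60.9% at Lhx2, a factor of cortex and eye. Lhx2 was at 16.1% (R1) and 17.02% (Tet/Tet) in ESCs and 7.38% in Tet/Tet neurons in these codons. Six6 was at 5.15% (R1) and 26.1% (Tet/Tet) in ESCs over 5 sites, the only one of the 19 that differed by 10 points between the ESC lines. In Tet/Tet neurons all 19 genes were under 10%. Genes with fewer than 5 sites in these codons were left out of these values. Among them R1 neurons ranged from 0% at Otx1 (3 sites) to 100% at Lhx8 (1 site). Tet/Tet neurons reached 22.7% among them, at Pax7 (4 sites). No share over other genes was computed for these codons.

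In these genes methylation was lowest near the start site and higher away from it, though it did not climb steadily. In the 500 bp downstream of the start it was 2.56% (R1) and 2.84% (Tet/Tet) in ESCs and 3.74% (R1) and 2.33% (Tet/Tet) in neurons. Between 3 and 4 kb downstream R1 neurons were at 16.7%, against 57.8% over genes with an island at the start and 52.9% over all genes. Farther downstream they were at 22.8% between 4 and 5 kb and 17.2% between 8 and 10 kb, against 54.4% and 54.9% over all genes. Upstream the curve was steeper, with 33.8% in R1 neurons between 3 and 4 kb before the start and 44.0% between 8 and 10 kb. Over all genes the values there were 51.4% and 51.2%, so these genes were closer to all genes far upstream. In the rest of the gene, sites up to 10 kb from the start averaged 15.3% in R1 neurons and those farther away 47.1%, against 47.6% and 74.6% over all genes. By annotation, sites in coding exons averaged 17.8% and those in introns 29.9% in R1 neurons, against 70.0% and 71.4% over all genes.

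**Figure D4:**
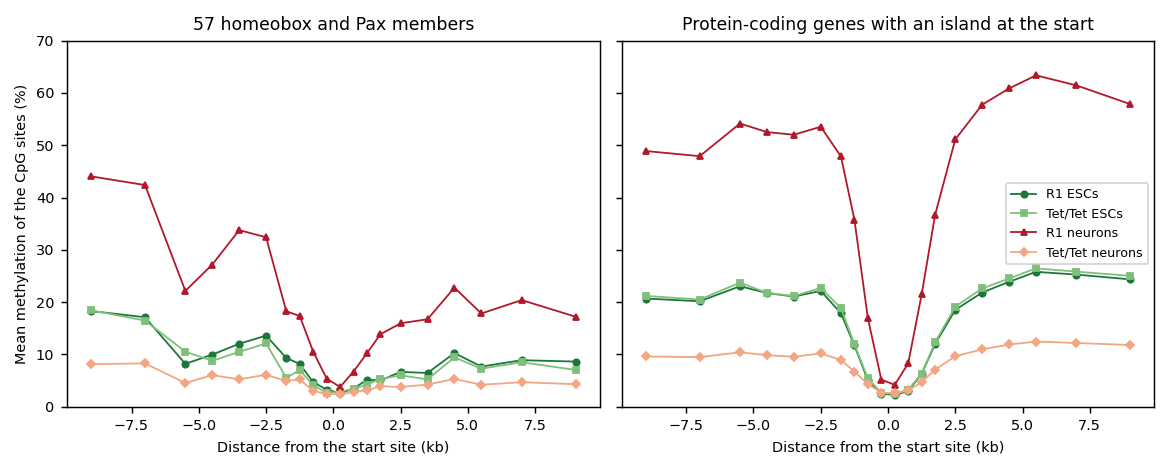
Mean methylation (%, y axis) in each library against distance from the start site (kb, x axis, upstream to the left) for the 57 genes (left) and for protein-coding genes with a CpG island over the start site (right). In R1 neurons the right-hand curve stands at 57.8% between 3 and 4 kb downstream and the left-hand curve at 16.7%.

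The run of low methylation around each start site was measured as the width over which the mean of 5 neighbouring sites stayed under 20%, within 10 kb to either side. The width spans bases with no listed site, so a run can be long where sites are sparse. Its median over the 54 genes that could be measured was 5132.5 bp (R1) and 5475 bp (Tet/Tet) in ESCs and 2225.5 bp (R1) and 12256 bp (Tet/Tet) in neurons. Over 12166 protein-coding genes the medians were 1259, 1240, 459.5 and 7855.5 bp, and over genes with an island at the start 1666, 1615, 707 and 8047 bp. The run was narrower in R1 neurons than in R1 ESCs for 43 of the 54 genes and wider for 7. In Tet/Tet neurons it was wider than in R1 neurons for 52 genes, and equal for Dlx5 and Nkx2-5. These counts were not made over all protein-coding genes, whose medians differed in the same directions, so they are not particular to the 54 genes as far as is known. In Tet/Tet neurons the limit of 20% lay above the usual level away from the start site. In the rest of these genes, sites outside islands averaged 8.51% in that library, and no gene exceeded 12.4%. The width there thus cannot tell a run at the start site from the low level of the whole library. Some genes had a wide run in R1 neurons, such as Pax2 with 10530 bp over 246 sites, Nkx2-2 with 10107 bp and Lhx2 with 9848 bp. In R1 ESCs their runs were 11448, 3835 and 9848 bp in the same order, so that of Nkx2-2 was wider in neurons. Other genes had none in R1 neurons, and 8 genes (Barhl1, Dlx1, Dlx4, Dlx5, Lhx6, Nkx2-1, Pax5 and Pax8) had a width of 0 there. For these the mean of 5 neighbouring sites was at or above 20% at the site nearest the start. The whole promoter can still be low, as at Dlx5 and Lhx6, which averaged 7.11% and 7.15% in R1 neurons. Over all protein-coding genes the width was 0 in that library for 4439 of 12166. Dlx1, Dlx5, Lhx6, Pax5 and Pax8 also had a width of 0 in Tet/Tet ESCs, and Dlx5 had 0 in each library.

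**Figure D5:**
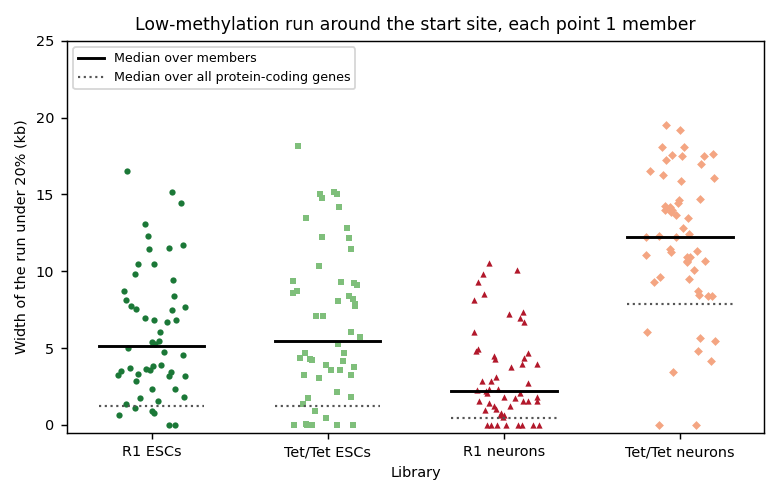
Width of the run under 20% methylation around the start site (kb, y axis) in each library (x axis), each point being 1 of 54 genes, with the median of these genes (solid line) and of all protein-coding genes (dotted line). The medians of these genes are 5132.5 bp in R1 ESCs, 2225.5 bp in R1 neurons and 12256 bp in Tet/Tet neurons. In Tet/Tet neurons the limit of 20% lies above the usual level away from the start site, so the width there reflects the low level of the library.

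Homeobox genes outside the list and the Hox genes are given for comparison. Of 86 other annotated homeobox factors 58 had enough sites in the rest of the gene, with medians of 10.9% (R1) and 11.4% (Tet/Tet) in ESCs and 24.0% (R1) and 5.41% (Tet/Tet) in neurons. In R1 neurons 31 of the 58 were counted as higher than in R1 ESCs (all genes 93.1%), and 18 were counted as lower from Tet/Tet ESCs to Tet/Tet neurons (all genes 71.9%). In Tet/Tet ESCs 27 of the 58 were under 10% and could not fall by the size counted. Of 39 Hox genes 35 had enough sites, with medians of 7.34%, 6.58%, 13.2% and 4.11% in the same order of libraries. Among them 13 were counted as higher and 1 as lower in R1 neurons than in R1 ESCs, again with 93.1% and 0.0185% over all genes. At promoters 13 of 59 other homeobox factors and 6 of 33 Hox genes were counted as higher in R1 neurons than in R1 ESCs, near the 20.4% over all genes.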

How the data were processed

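The authors trimmed reads with Trim Galore 0.6.4, mapped them to mm10 with Bismark 0.19.0, called each CpG with MethylDackel 0.3.0 and deposited 1 browser track per library with the percent methylation of each CpG. Values are not normalized between libraries, and no read totals are given, so no coverage minimum, interval or test on reads could be used. The genes and lists were chosen with earlier results of these data known. In Python 3.11.15 (numpy 2.4.6, pandas 2.3.3, numba 0.67.0), sites were placed on the GRCm38 (mm10) sequence, 23751 CpG islands were called, and levels were unweighted means over sites listed in all 4 libraries, with at least 10 sites. A difference was counted at 10 percentage points, the size in the study's methods, and counts are read against the same count over all protein-coding genes or their islands. The calculation was tested on simulated data. Named genes are those with the largest differences among those counted, and the highest and lowest of each family in R1 neurons. Stretches that overlap a UTR were not printed, and the start sites are shown by the 200 bases before them. Alternatives were other sets of sites, site minimums, sizes of difference, summaries and windows. The homeodomain codons, and the limit of 10 kb, were added after seeing the data.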

Additional observations from a re-analysis of the deposited data

Results flagged for a closer look

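The difference between neurons and ESCs went in opposite directions in the R1 and Tet/Tet lines for most of these genes, which is why it is listed here. In the rest of the gene the Tet/Tet difference minus the R1 difference had a median of -13.9 percentage points over 56 genes. Of these, 51 were higher in R1 neurons and lower in Tet/Tet neurons than in their ESCs, and 5 were higher in both. Over all protein-coding genes 93.2% were higher in the R1 and lower in the Tet/Tet pair. At promoters the median was -1.64 points over 54 genes, with 27 going in opposite directions in this way, 17 higher in both and 10 lower in R1 neurons, against 46.0% of all genes with opposite directions. With 1 library per condition the difference between the lines was not tested.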

How the results depend on the processing

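No paired analysis was possible because each condition has 1 library and no test was made, and no replicate could be left out. A read minimum was not run, since the tables give no read totals. Of the recomputed counts in the directions described here, 67 stayed within 1.5 times the count reported and 33 did not, and of those in the opposite directions 97 did and 3 did not. The cause was not tested. For promoters higher in R1 neurons than in R1 ESCs (6 reported), MspI fragments of 40 to 220 bp gave 2, a difference of 20 points gave 3 and one of 5 points 13, the median over sites gave 3 and a window of 500 bp gave 2. For promoters lower in Tet/Tet than in R1 neurons (6), MspI fragments gave 3, 5 points gave 17, 1 value per 100 bp gave 10 and a window of 500 bp gave 2. For promoters lower in Tet/Tet neurons than in Tet/Tet ESCs (1), islands left out gave 3, 20 points gave 0, 5 points gave 4, the median gave 0, 1 value per 100 bp gave 3 and every annotated transcript start gave 2. For ESC promoters higher in the Tet/Tet line (0), 5 points, 1 value per 100 bp and a window of 500 bp each gave 1. In the rest of the gene, for R1 neurons above R1 ESCs (30), island sites only gave 5, 20 points gave 9, 5 points gave 46 and the median gave 15. For Tet/Tet below R1 neurons (37), island sites only gave 7, 20 points gave 17 and the median gave 17. For Tet/Tet neurons below Tet/Tet ESCs (8), MspI fragments gave 5, islands left out gave 18, island sites only gave 1, 20 points gave 1, 5 points gave 15, the median gave 1, 1 value per 100 bp gave 15 and sites up to 10 kb from the start gave 2. The median width of the low run with a limit of 10% was 1690.5 bp (R1) and 1855.5 (Tet/Tet) in ESCs and 1197.5 (R1) and 4903.5 (Tet/Tet) in neurons. With 10 sites in the running mean it was 8680.5 bp (R1) and 9298.5 bp (Tet/Tet) in ESCs, and each library's own sites gave 3633 bp for Tet/Tet ESCs and 1178 bp for R1 neurons. Of the genes named with a counted difference, 6 changed sign. The promoter of Barhl1 differed by 0.63 points between Tet/Tet and R1 neurons with island sites only, now higher in the former, and that of Dlx1 was lower in R1 neurons by the median over sites (-2.69). With island sites only, Lmx1a (0.82), Pax3 (0.19), Pax5 (0.12) and Gbx1 (0.050) were slightly higher in Tet/Tet neurons than in Tet/Tet ESCs in the rest of the gene. Over promoters and the rest of the gene of all named genes, 58 other recomputed values moved by 10 points or more and 185 by less. Without read totals it cannot be said how much of a difference at a region with few sites is sampling of reads, and without replicates there is no spread to set any of them against.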
